A study of Caenorhabditis briggsae with 12 samples.

Results

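Day 9 adults were compared with day 3 adults of Caenorhabditis briggsae, a nematode whose hermaphrodites fertilise themselves. The comparison uses 3 libraries of day 9 and 3 of day 3, chosen by the day of adulthood in their titles, and so 6 of the 12 libraries of the series. Both groups were whole hermaphrodites of AF16, the wild-type laboratory strain, raised at the same temperature on E. coli OP50. The labels name no other allele and no treatment, and age is the labelled difference between them. Synchronised animals were aged on plates, and their larvae were washed and picked away every second day. Whether the replicates were grown as separate cultures is not in the labels, so the p-values below take in just the spread among these libraries, which may be technical.

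In C. elegans and its self-fertile relatives, a hermaphrodite makes a limited store of its own sperm before it switches to oocytes, and self-progeny end when that store runs out. RNA from a whole adult therefore mixes gut, muscle, skin and nerve with the germ line and with embryos held in the uterus. The gut also makes yolk proteins, among the most abundant transcripts of the egg-laying adult in C. elegans. The title of the series places a shift after reproduction. In bulk RNA of this kind, fewer cells of a type and less RNA per cell cannot be told apart. The deposited table gives WormBase gene identifiers with no symbols, and the reference table at hand matched 0 of them. Genes are therefore given by identifier, no function is assigned, and no germ-line, larval, male or sperm markers could be checked.

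The 3 day 9 libraries differed more among themselves than those of day 3. Their totals were 14276540, 31861634 and 25821051 counts in replicates 1, 2 and 3, and the day 3 totals were 26471202 to 30458357. Across the 14511 genes tested, the log2 CPM (counts scaled to a common library total) of day 9 replicates 2 and 3 had a Pearson r of 0.99, and those of replicate 1 had 0.81 and 0.79 with the other two. With the day 3 libraries day 9 replicate 1 reached 0.92 to 0.95. At day 3, replicate 3 correlated with replicates 1 and 2 at 0.98, and it was the day 3 library closest to day 9 replicates 2 and 3. These coefficients are over genes, which are not independent replicates, and carry no p-value. Per gene, the standard deviation (SD) of log2 CPM had a median of 0.49 at day 9 and 0.13 at day 3.

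Few genes passed the test, and in all of them the 3 day 9 libraries moved the same way. At day 9, 80 genes were called higher than at day 3, 0.551% of the genes tested, and 89 were called lower, 0.613%, which makes 1.16% in both directions, at an adjusted p under 0.05 by edgeR's quasi-likelihood test. In all 80 and all 89, every day 9 library lay outside the range of the day 3 libraries on the side of the call. Among all genes tested, 33.8% had no overlap between the days in one direction or the other. With 3 libraries a day the test favours genes whose libraries agree, so this agreement follows largely from the call. At an unadjusted p under 0.05 there were 4076 genes, 2058 of them higher. The number of calls depended on the scaling and on single libraries. Median-of-ratios factors left 26 higher and 25 lower genes, of which 26 and 24 were among those called with TMM, the scaling used for all values here. Leaving out day 9 replicate 1 gave 6433 higher and 5264 lower genes. Leaving out replicate 2 of day 9, replicate 3 of day 9 or replicate 2 of day 3, edgeR called 0 genes, with 2214, 2337 and 2160 at an unadjusted p under 0.05. Without day 3 replicate 1 it called 0 higher and 2 lower genes, and without day 3 replicate 3 it called 0 and 4. With upper-quartile scaling 64.5% of the calls were higher (182 higher, 100 lower) where TMM gave 47.3%, and the median log2 fold change over all genes was then 0.34, against 0.14 with TMM.

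The 80 higher genes were mostly of low to moderate level and rose steeply. Their median log2 fold change was 2.30, with a range of 0.76 to 7.86, and 45 of them rose at least 4-fold. Their median level stood at 425%, 474% and 457% of the day 3 mean, taken on the log2 CPM scale, in day 9 replicates 1, 2 and 3. The 3 day 9 libraries thus gave similar sizes of rise, with replicate 1 slightly below the other two. Together these genes held 0.408%, 0.515% and 0.527% of all counts in the 3 day 9 libraries, against 0.128%, 0.131% and 0.133% in the day 3 libraries. Replicate 1 was the day 9 library farthest from the day 3 mean in 34 of the 80 genes, replicate 2 in 17 and replicate 3 in 29. They were chosen by this comparison, so these values describe them and are no further test. Within this group the SD per gene had a median of 0.25 among day 9 libraries and 0.18 among day 3 libraries, against 0.49 and 0.13 for all genes tested.

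Among called genes that reached a mean of 10 CPM on their higher day, 49 of them higher at day 9, the widest gap between the nearest libraries of both days belonged to WBGene00028725. It stood at 64.8, 209.1 and 232.0 CPM in the day 9 libraries, against 1.37, 1.48 and 1.71 CPM in the day 3 libraries. Replicate 1 was the lowest of the day 9 libraries and still far above each day 3 library. The means were 168.6 ± 90.6 CPM at day 9 and 1.52 ± 0.17 CPM at day 3 (SD, n = 3 each). The log2 fold change was 6.79 ± 0.61 (SE), at an edgeR adjusted p of 0.0235. With replicate 1 as the lone day 9 library the log2 fold change was 5.51.

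WBGene00031052 came next, and here replicate 1 was the highest day 9 library. It stood at 58.9, 29.5 and 34.4 CPM at day 9, against 1.24, 1.97 and 2.87 CPM at day 3. The means were 40.95 ± 15.8 CPM at day 9 and 2.03 ± 0.81 CPM at day 3 (SD, n = 3 each). The log2 fold change was 4.33 ± 0.46 (SE), at an edgeR adjusted p of 0.0331, and it was 4.95 with replicate 1 as the lone day 9 library. On the log2 CPM scale the nearest libraries of both days were 10.1-fold apart for this gene and 36.4-fold apart for WBGene00028725. Both calls were lost when any single library other than day 9 replicate 1 was left out, with edgeR adjusted p of 0.0841 to 0.309. Their direction held throughout, as is likely for genes chosen for having no overlap.

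**Figure D1:**
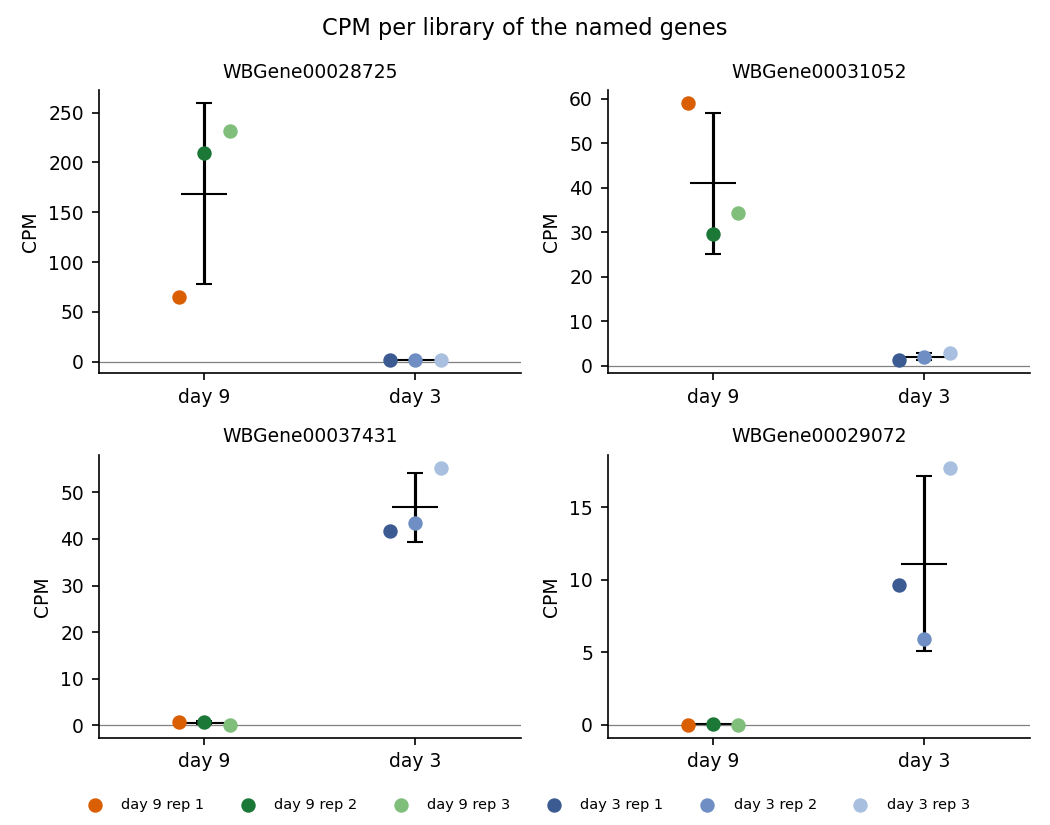
CPM (vertical axis, linear, each panel to its own scale) of the 4 named genes in the 3 day 9 and the 3 day 3 libraries. Points are libraries, and the bar and whiskers are the mean ± SD. WBGene00028725 and WBGene00031052 were higher in all 3 day 9 libraries, and WBGene00037431 and WBGene00029072 lower in all 3.

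The 89 lower genes were more abundant and fell by smaller factors. Their median level over the 6 libraries was 97.3 CPM, against 9.88 CPM for the 80 higher genes. Their median log2 fold change was -1.20, with a range of -8.59 to -0.69, and 39 of them fell less than 2-fold. Their median level stood at 47.3%, 42.9% and 42.0% of the day 3 mean in day 9 replicates 1, 2 and 3. These genes held 4.13%, 4.33% and 4.21% of the counts at day 9, against 14.3%, 12.75% and 12.03% at day 3. They include 6 of the 10 most abundant genes, whose share is given below, so both shares rest partly on the same counts. The SD per gene had a median of 0.14 among day 9 libraries and 0.07 among day 3 libraries. Both were smaller than in the 80 higher genes, at 0.25 and 0.18, which were of lower level. They too were chosen by this comparison.

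Of the 79 lower genes within the same limit of 10 CPM, the widest gap was that of WBGene00037431. It stood at 0.79, 0.61 and 0.10 CPM in the day 9 libraries, against 41.8, 43.4 and 55.3 CPM in the day 3 libraries. Its counts at day 9 were 12, 22 and 3, so its level there rests on few reads. The log2 fold change was -6.58 ± 0.71 (SE), at an edgeR adjusted p of 0.0349, from means of 0.50 ± 0.35 CPM at day 9 and 46.8 ± 7.36 CPM at day 3 (SD, n = 3 each). It was -5.78 with replicate 1 as the lone day 9 library.

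WBGene00029072 was almost undetected at day 9. It had 0, 2 and 0 counts in day 9 replicates 1, 2 and 3, against 233, 144 and 489 counts in those of day 3. The day 3 libraries stood at 9.64, 5.92 and 17.7 CPM. Over the pooled counts of each day the level was 454-fold lower at day 9, with an exact binomial 95% interval of 125 to 3750 that covers counting error only. A level of up to 0.196 CPM in day 9 replicate 1 would not have been seen, taking 3 counts as the limit. The edgeR adjusted p was 0.0356. The calls of both lower genes were lost without any single library other than day 9 replicate 1, at edgeR adjusted p of 0.0588 to 0.309.

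The 10 most abundant transcripts took a smaller share of the counts in every day 9 library. The 10 genes with the highest mean level, at 3134 to 25383 CPM, together held 4.55%, 5.11% and 5.11% of the counts in day 9 replicates 1, 2 and 3, against 14.1%, 12.5% and 11.9% in the day 3 libraries. The groups did not overlap, and the day 9 libraries had a mean of 4.92% ± 0.32 and the day 3 libraries one of 12.8% ± 1.12 (SD, n = 3 each). An exact permutation test gave p = 0.1 (two-sided), the smallest that 3 against 3 libraries can give. Of these 10 genes, 6 were called lower and 0 higher, and in 8 all 3 day 9 libraries lay below those of day 3. For comparison, 0.613% of all genes tested were called lower and 20.3% lay wholly below. The median of the 10 genes was a log2 ratio to the day 3 mean of -1.22, -1.33 and -1.37 in replicates 1, 2 and 3, and it stayed at or below -1.09 with each scaling tried. Their log2 fold changes ran from -2.62 to 0.19, with 1 gene above 0. The most abundant gene of all stood at 10880 to 11280 CPM in the day 9 libraries, against 35337 to 45350 CPM in those of day 3. The fall was weaker in a wider set. The 100 most abundant genes, these 10 among them, held 20.1%, 19.5% and 20.2% at day 9, against 27.6%, 26.9% and 26.9% at day 3. Of the 100, 6 were called lower and 27 lay wholly below day 3. Their median log2 ratios were -0.38, -0.21 and -0.06 in day 9 replicates 1, 2 and 3.

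The counts were also spread over more genes at day 9. Both measures of this draw partly on the counts of the 10 most abundant genes above and are not independent of that result. Each library's own 10 most abundant genes took 5.56%, 5.41% and 5.52% of its counts at day 9, against 14.1%, 12.5% and 11.9% at day 3. The first 50% of the counts came from 718, 740 and 664 genes at day 9 and from 529, 548 and 544 genes at day 3. All 3 day 9 libraries lay outside the day 3 range in both measures, each with an exact two-sided permutation p of 0.1. The number of genes at or above 1 CPM did not follow this. It was 11330, 13212 and 13222 at day 9 and 11717, 11705 and 12111 at day 3, so replicate 1 lay below all day 3 libraries and replicates 2 and 3 above them (exact two-sided permutation p = 0.4).

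**Figure D2:**
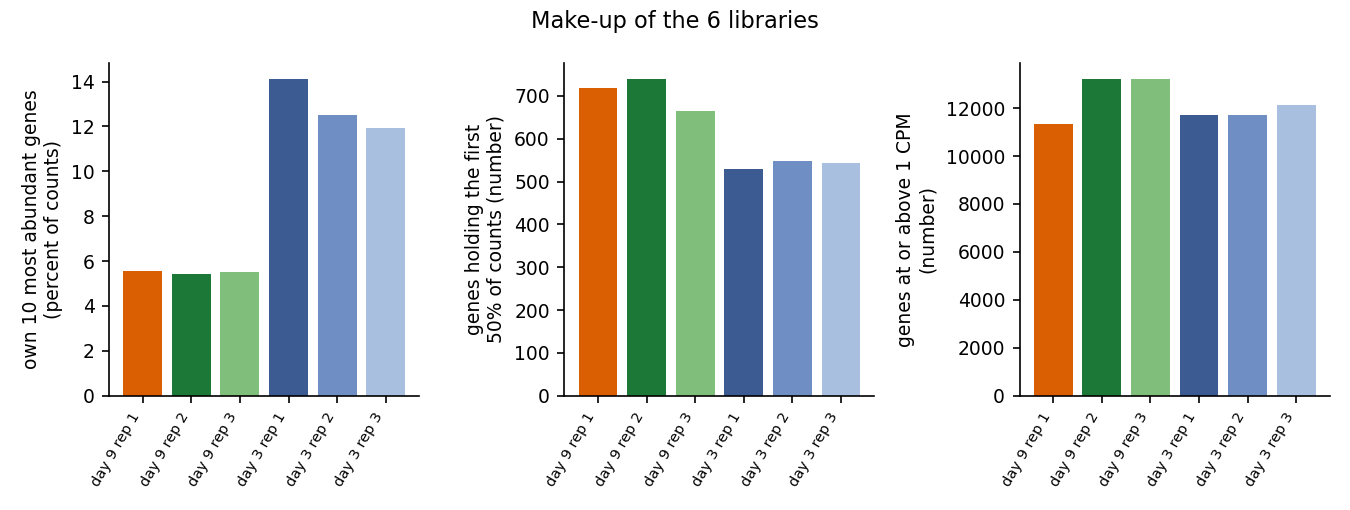
Make-up of each library, day 9 replicates 1 to 3 then day 3 replicates 1 to 3: percent of counts in the library's own 10 most abundant genes (left), number of genes holding the first 50% of the counts (middle) and number of genes at or above 1 CPM (right). The day 9 bars are 5.41% to 5.56% on the left, against 11.9% to 14.1% at day 3, while on the right replicate 1 of day 9 stands apart from replicates 2 and 3.

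Over all genes tested, the 3 day 9 libraries often lay on opposite sides of day 3. The commonest pattern, in 3478 genes or 24.0%, had replicates 2 and 3 above the day 3 range and replicate 1 below it. All 3 day 9 libraries lay below in 2941 genes or 20.3%. The reverse split, with replicates 2 and 3 below and replicate 1 above, held in 1967 genes or 13.6%, and in 1961 genes, 13.5%, all 3 lay above. Together, 33.8% of the genes had no overlap between both days. With upper-quartile scaling 2553 genes lay wholly above and 2153 wholly below, and with median-of-ratios factors 2122 and 2450. The pattern with replicate 1 above and the other two below held 1876 genes under the first of these scalings and 2673 under the second. The order of these 3 patterns thus depended on scaling, while the split with replicate 1 below stayed the largest of the 4, at 3725 and 3047 genes.

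Replicates 2 and 3 lay together above the day 3 range in 6766 genes and together below it in 5608. Replicate 1 was also above in 29.0% of the 6766 genes, within the day 3 range in 19.6% and below it in 51.4%. Of the 5608 genes, replicate 1 was also below in 52.4%, within in 12.5% and above in 35.1%. With median-of-ratios factors this turned, with replicate 1 below in 2450 of the genes where the other two lay below and above in 2673. The median log2 fold change was 0.94 in the genes wholly above day 3 and -0.59 in those wholly below. In 229 of those wholly above and 111 of those wholly below, the nearest libraries of both days were at least 2-fold apart, and in 51 and 36 at least 4-fold.

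**Figure D3:**
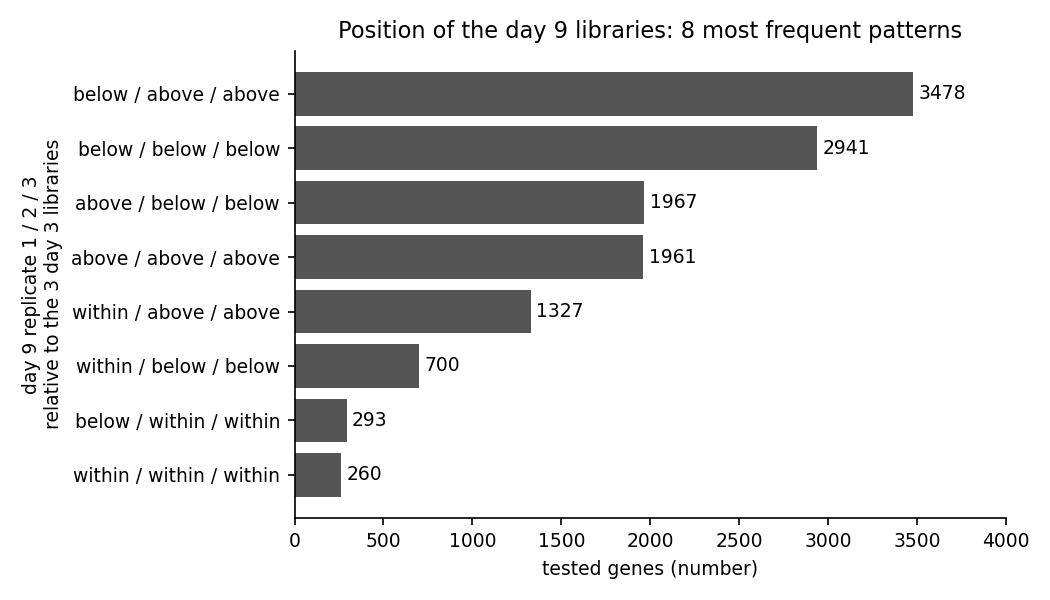
Number of tested genes (horizontal axis) in each of the 8 commonest patterns of the day 9 libraries, given as the position of replicate 1, 2 and 3 above, within or below the range of the 3 day 3 libraries. The longest bar, 3478 genes, has replicate 1 below and replicates 2 and 3 above, and the bars where all 3 moved the same way hold 2941 genes (below) and 1961 genes (above).

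The position of the day 9 libraries was then set out by the level of the gene. The level is the mean over the same 6 libraries, so the class of a gene depends in part on its day 9 values. The classes, like the rank of the 10 most abundant genes, are thus not independent of the ratios and shares given for them. Among the 2197 genes with a mean of 100 to 1000 CPM over the 6 libraries, 37 or 1.68% were called lower, against 0.613% of all genes tested, and 4 or 0.182% higher, against 0.551%. In this class 980 genes or 44.6% had all 3 day 9 libraries below day 3, against 20.3% of all genes. Their median log2 ratio to the day 3 mean was -0.15, -0.53 and -0.65 in replicates 1, 2 and 3, so all 3 lay below 0, as they did with each scaling tried. Beside it, the median over all genes was -0.14, 0.16 and 0.20 in the same libraries. The 104 genes of 1000 CPM and over had 6 or 5.77% called lower and 0 higher. These 6 are the ones already given among the 10 most abundant genes. In 26.9% of the class all 3 day 9 libraries lay below day 3. The medians were -0.38, -0.22 and -0.09 in replicates 1, 2 and 3. Those of replicates 2 and 3 turned to 0.02 and 0.19 with upper-quartile scaling.

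Among genes of lower level, the 3 day 9 libraries parted. The 5239 genes of 1 to 10 CPM had a median log2 ratio of -0.24 in replicate 1, against 0.79 and 0.85 in replicates 2 and 3. In that class 34 genes or 0.649% were called higher, near the 0.551% of all genes tested, and 8 or 0.153% lower, against 0.613%. Wholly above day 3 lay 989 genes or 18.9%, where 13.5% of all genes did. In the 1580 genes under 1 CPM the medians were -0.07, 0.57 and 0.60, and that of replicate 1 turned to 0.01 with median-of-ratios factors. Here 7 genes or 0.443% were called higher and 4 or 0.253% lower, below the 0.551% and 0.613% of all genes tested. The 5391 genes of 10 to 100 CPM had medians of -0.10, -0.27 and -0.29, the first of which was 0.01 with median-of-ratios factors, and 35 or 0.649% were called higher and 34 or 0.631% lower, both near the shares over all genes.

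**Figure D4:**
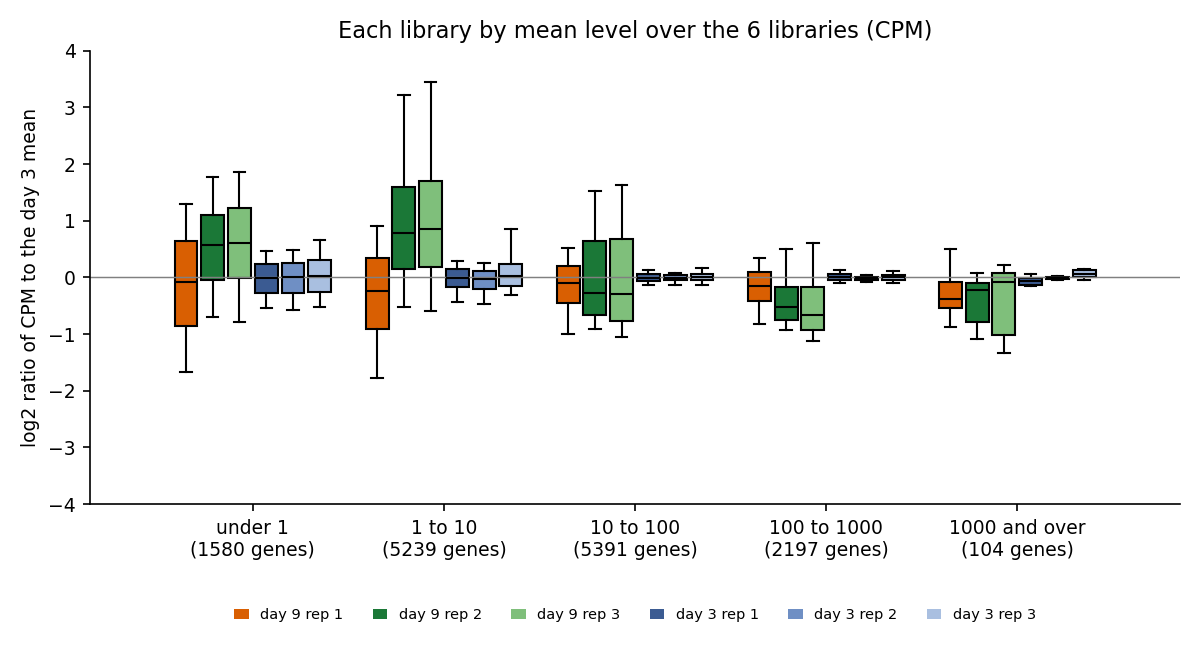
Log2 ratio of CPM to the day 3 mean (vertical axis) for each of the 6 libraries, in classes of mean CPM over the 6 libraries. The day 9 libraries enter that mean. Boxes span the quartiles with the median as a line, and whiskers run from the 10th to the 90th percentile of genes. In the class of 1 to 10 CPM the median of day 9 replicate 1 is -0.24 while those of replicates 2 and 3 are 0.79 and 0.85, and in the class of 100 to 1000 CPM all 3 lie below 0.

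The libraries of days 1 and 6, which take no part in the comparison, were used to sort the genes by their change over early adult life. The return of day 1 genes in day 9 replicates 2 and 3 was known when this sorting was chosen. The low-count filter also used the day 9 libraries, so a gene could pass partly through those replicates. The values below therefore describe the groups and are no independent test. The 992 tested genes at least 8-fold lower at day 6 than at day 1 split the day 9 libraries most widely. Their median level was 35.3% of the day 3 mean in day 9 replicate 1, and 1008% and 1176% in replicates 2 and 3. They held 0.155%, 4.403% and 5.31% of the counts in day 9 replicates 1, 2 and 3, against 0.433%, 0.415% and 0.745% in those of day 3. Replicate 1 was therefore the lowest of the 6 libraries in this group, and replicates 2 and 3 the highest. Replicate 3 of day 3 stood above its own day as well, with a median log2 ratio to the day 3 mean of 1.05, against -0.42 and -0.51 in replicates 1 and 2. Of the 992 genes 1 was called higher and 0 lower, and 44 or 4.44% lay wholly above day 3, where 13.5% of all genes did. The 2524 genes that were 2 to 8-fold lower at day 6 followed the same split, with medians of -0.65, 1.15 and 1.25 in day 9 replicates 1, 2 and 3, with 18 or 0.713% called higher and 6 or 0.238% lower, where 0.551% and 0.613% of all genes were.

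The genes on the other side of this sorting, higher at day 6, were fewer. The 98 genes at least 8-fold higher at day 6 than at day 1 had median log2 ratios to the day 3 mean of 1.00, 1.11 and 0.62 in day 9 replicates 1, 2 and 3, above 0 in all 3 and with each scaling tried. Of them 8 were called higher, 8.16% against 0.551% of all genes tested, and 0 lower, and 37 or 37.8% lay wholly above day 3. Individual genes varied, with 76, 67 and 66 of the 98 above the day 3 mean in replicates 1, 2 and 3. The 744 genes that were 2 to 8-fold higher at day 6 split the day 9 libraries again, at 0.36, -0.47 and -0.55, with 11 or 1.48% called higher and 10 or 1.34% lower, against 0.551% and 0.613% of all genes. The 8877 genes within 2-fold had medians of -0.06, -0.29 and -0.33, the first of which was 0.05 with median-of-ratios factors. With upper-quartile factors they were close to 0 in all 3 libraries, at -0.06 in replicates 2 and 3. This class, 61.2% of the genes tested, held 69 of the 89 lower genes and 34 of the 80 higher ones, and 29.8% of it lay wholly below day 3, where 20.3% of all genes did.

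**Figure D5:**
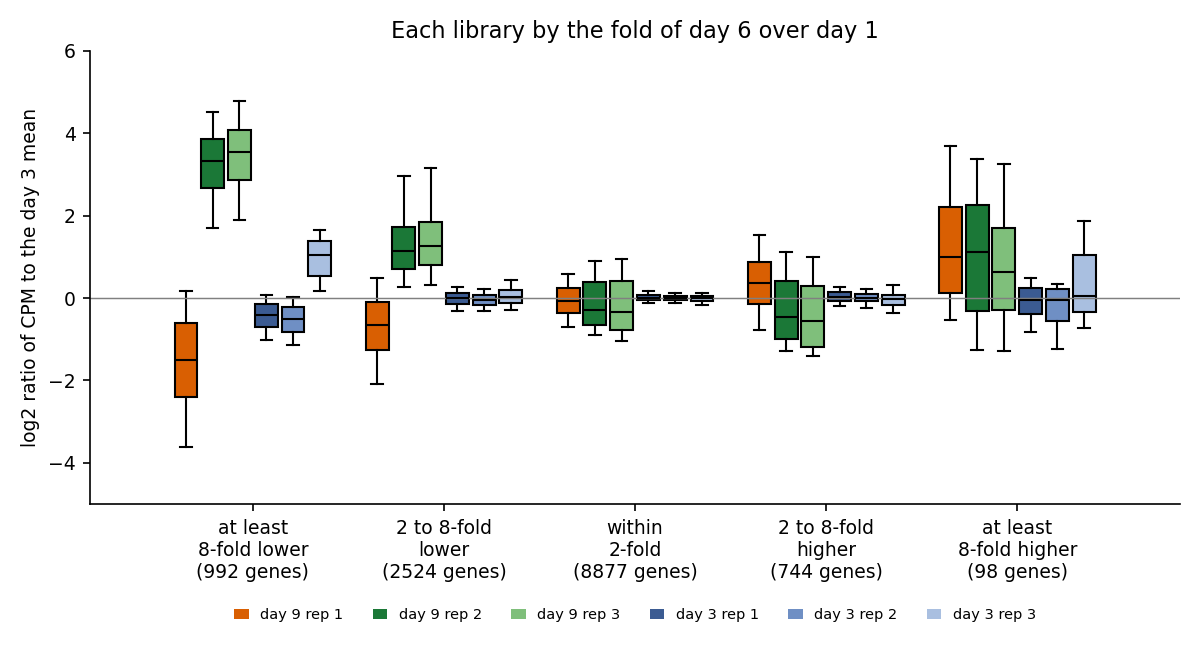
Log2 ratio of CPM to the day 3 mean (vertical axis) for each of the 6 libraries, in classes of the fold of day 6 over day 1, which come from libraries outside the comparison. Boxes span the quartiles and whiskers run from the 10th to the 90th percentile of genes. In the 992 genes at least 8-fold lower at day 6, day 9 replicate 1 lies below 0 and replicates 2 and 3 lie far above it, and in the 98 genes at least 8-fold higher all 3 medians lie above 0.

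With day 9 replicate 1 left out, 41.3% of the 15571 genes then tested were called higher and 33.8% lower, and all 80 and all 89 of the genes called with 6 libraries were among them. Replicate 1 itself lay above the day 3 range in 1646 of those 6433 higher genes, 25.6%, within it in 1482 and below it in 3305. In the 5264 lower genes it lay below in 2800, 53.2%, within in 647 and above in 1817. Set alone against day 3, and assumed to vary like the day 3 libraries, replicate 1 gave other numbers: 2426 genes were called higher and 2219 lower, among them 77 of the 80 and all 89. In the 80 and 89 genes every day 9 library already lay outside the day 3 range. Their being called again in either fit therefore follows largely from their choice and is no further test. Replicate 1 had the lowest total of the 6 libraries, 14276540 counts, and the part of depth, RNA quality or sample make-up in its position was not tested.

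Genes seen on one day alone were few and mostly of low level. Of 3703 genes with 0 counts in the 3 day 3 libraries, 1063 had a count at day 9, and in 8 of these each day 9 library had more than 3 counts. In 78 only replicates 2 and 3 had more than 3, and in 14 only replicate 1. Their highest mean at day 9 was 60.04 CPM, and 7 had a mean of at least 1 CPM. Of the 3703 genes 6 passed the filter and were tested, and 1 was called higher, where 0.551% of all genes tested were. With 0 counts at day 3 its direction was fixed, so the call adds no support. Of 3126 genes with 0 counts at day 9, 486 had a count at day 3, with more than 3 in each day 3 library for 16 of them and a highest mean of 1.66 CPM. Of the 3126 genes 5 were tested and 0 called.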

How the data were processed

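Trizol-extracted RNA went into TruSeq libraries, per the labels' protocols. The authors deposited raw counts per gene, 1 column per library. STAR, featureCounts and MultiQC were used, per the submitters' processing notes; versions, build, annotation and strandedness were not given in the sources used here, so genes of near-identical families or overlapping genes are uncertain.

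Libraries were assigned by title. With edgeR 4.0.16 (R 4.3.3), filterByExpr kept 14511 of 23169 genes, and TMM factors and a robust quasi-likelihood fit of the 6 libraries (4 residual degrees of freedom, common biological coefficient of variation 0.46) gave p-values adjusted by Benjamini-Hochberg. The fit was checked on simulated data with the same spread per gene in all libraries. That check had no library set apart from the others of its day, so it does not cover that case. The SE is the size of the log2 fold change over the square root of F. CPM carry the TMM factors, and log2 CPM a prior count of 2. Same-day libraries differed beyond sampling noise (chi-square per degree of freedom 8.76 to 288). The 3 counts taken as a limit allow 0.084 to 0.196 CPM.

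Named genes were called, showed no overlap, had at least 10 CPM in the higher day, and were ranked by the gap between the nearest libraries, 2 in each direction. The reference table (22727 genes, assembly CB4) matched 0 identifiers, so the gene lists drawn up for yolk, germ line, sperm, larvae and males were not used. The comparison, groups and rules were chosen with earlier results of these data known, among them the position of day 9 replicate 1 and the return of day 1 genes in replicates 2 and 3. Alternatives were median-of-ratios and upper-quartile factors, no filter, 1 CPM in 3 libraries, DESeq2 1.42.0, limma-voom (3.58.1) with and without sample weights, all 12 libraries, a replicate block, a minimum log2 fold change of 1, and libraries left out.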

Additional observations from a re-analysis of the deposited data

How the results depend on the processing

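The number of genes called differed with most settings. As reported, 80 genes were higher and 89 lower. Median-of-ratios factors gave 26 and 25, upper-quartile factors 182 and 100, no low-count filter 33 and 26, a filter of 1 CPM in 3 libraries 248 and 154, DESeq2 1425 and 963, limma-voom 225 and 347, limma-voom with sample weights 6380 and 5363, and all 12 libraries in the fit 2768 and 2708. A log2 fold change of at least 1 in size left 78 higher and 50 lower genes. Leaving out single libraries gave 0 to 6433 higher and 0 to 5264 lower genes, the highest without day 9 replicate 1, and replicate 1 as the lone day 9 library gave 2426 and 2219. The sample weight of day 9 replicate 1 was 0.033, and the other libraries had 1.09 to 3.52. None of the 169 calls took the other sign under any alternative fit in which the gene was tested. In all of them every day 9 library lay outside the day 3 range, and the named genes were also picked for their gap. A kept direction therefore follows largely from the choice of genes and is no further test. Replicate numbers are shared between days, and the labels do not say whether they pair the samples. Deviations of same-numbered libraries from the day mean correlated at 0.38, -0.38 and 0.49, and day 9 replicate 2 correlated best with day 3 replicate 3. With 3 libraries a day these deviations are tied to each other, so the values cannot decide whether the numbers pair the samples. With the replicate block edgeR called 0 genes in either direction, with 2755 at an unadjusted p under 0.05. Each named gene kept its direction in 16 of 16 alternatives and its call in 10, losing it with the block and 5 of the 6 single libraries. The numbers wholly above and below day 3 were 7517 and 5822 without day 9 replicate 1, 2097 to 2476 and 2966 to 3626 without any other library, 2934 and 2516 with no filter, and 2026 and 2281 with the 1 CPM filter. The cause of these differences was not tested. With 3 libraries a day and a day 9 SD of 0.49, a gene that was not called may still have changed.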
